A study of Mus musculus with 22 samples.

Results

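The genes described here are 10 imprinted genes of the mouse: Nnat, Peg3, Peg10, Dlk1, Meg3, Rian, Mirg, Grb10, Plagl1 and Mest. They were selected on their symbols in a table of 57010 genes, and each symbol had 1 row. The group was proposed from a view of these same data in which Nnat already stood out by its fall in mutant islets of the C57 background. That difference of Nnat, and every comparison that shares its libraries, is therefore given as a description without a p-value. All 10 passed the filter on low values and were among the 16756 genes tested. Of these, 9 reached a TPM (a length-scaled transcript abundance with the same total in every library) of at least 1 in all 22 samples, and Dlk1 did so in 15.

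The samples were isolated pancreatic islets of 22 male mice aged 5.5 weeks, with 1 polyadenylated-RNA library from each mouse. The mice were wild type (WT) or heterozygous (Het) for the S64F allele of MafA, which encodes a regulator of insulin transcription in beta cells, and they were on a background that the labels call C57 or on one called Mixed. On C57 there were 5 WT and 6 Het mice and on Mixed 5 WT and 6 Het mice, and the WT groups carried no other allele or treatment according to the labels. How the S64F allele was made and which strains enter the Mixed background are not given in the sources used here. The allele is not described as limited to a cell type, so the comparison covers whole islets with all of their cells.

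An imprinted gene is transcribed from only the maternal or only the paternal chromosome, according to DNA methylation laid down in the germ line at an imprinting control region. Nnat, Peg3, Peg10, Dlk1, Plagl1 and Mest are known as paternally expressed genes, Meg3, Rian and Mirg as maternally expressed noncoding RNAs, and Grb10 as maternally expressed in most tissues and paternally in neurons. Many imprinted genes act in fetal growth and in metabolism. The table gives 1 value per gene and library, so it does not separate the parental alleles.

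Promoter sequence is shown for Nnat, Grb10 and Mest, the genes whose Het and WT values did not overlap on the C57 background, because these starts belong to the genes that separated the genotypes. Each sequence is the 250 bases upstream of a RefSeq transcript start in GRCm38.p6, written 5′ to 3′ on the strand of the gene, with every CG dinucleotide, the site that imprinting methylation uses, in capitals. They are Nnat at chr2:157559828-157560077 (plus strand), Grb10 at chr11:12037421-12037670 and chr11:12027972-12028221 (minus strand), and Mest at chr6:30733256-30733505 and chr6:30737800-30738049 (plus strand).
Nnat: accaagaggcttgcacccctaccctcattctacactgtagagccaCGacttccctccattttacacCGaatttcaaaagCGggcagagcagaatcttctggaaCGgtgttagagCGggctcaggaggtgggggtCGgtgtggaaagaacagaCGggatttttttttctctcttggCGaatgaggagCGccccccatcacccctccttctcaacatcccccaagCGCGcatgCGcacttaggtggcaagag
Grb10, first start: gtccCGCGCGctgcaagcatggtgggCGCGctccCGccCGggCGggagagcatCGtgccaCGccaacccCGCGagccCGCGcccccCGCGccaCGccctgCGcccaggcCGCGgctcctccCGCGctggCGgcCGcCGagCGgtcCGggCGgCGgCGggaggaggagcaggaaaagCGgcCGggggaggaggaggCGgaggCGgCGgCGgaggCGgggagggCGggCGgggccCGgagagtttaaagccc
Grb10, second start: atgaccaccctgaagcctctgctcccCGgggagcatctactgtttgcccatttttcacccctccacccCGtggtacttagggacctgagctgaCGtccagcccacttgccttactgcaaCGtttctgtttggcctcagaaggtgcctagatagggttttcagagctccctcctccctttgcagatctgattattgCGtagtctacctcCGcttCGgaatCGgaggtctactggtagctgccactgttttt
Mest, first start: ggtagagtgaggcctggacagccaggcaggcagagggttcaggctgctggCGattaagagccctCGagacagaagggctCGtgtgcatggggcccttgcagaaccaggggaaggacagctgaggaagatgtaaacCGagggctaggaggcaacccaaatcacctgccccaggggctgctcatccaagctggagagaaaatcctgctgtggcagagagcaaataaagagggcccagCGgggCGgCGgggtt
Mest, second start: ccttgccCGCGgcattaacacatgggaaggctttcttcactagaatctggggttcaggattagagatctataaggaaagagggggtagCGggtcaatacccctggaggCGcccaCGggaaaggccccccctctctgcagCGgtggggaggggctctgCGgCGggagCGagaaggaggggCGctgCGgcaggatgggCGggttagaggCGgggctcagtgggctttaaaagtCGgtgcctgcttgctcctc

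The Grb10 starts differed in their content of CG dinucleotides, with 40 in the first window and 8 in the second, against a median of 6 over the upstream windows of all 32851 RefSeq starts in the table. The first Grb10 window stood at the 98.7 percentile of that distribution. Nnat had 12, and the Mest windows had 7 and 14. A further Mest window overlapped the second almost entirely, and no window of Peg10 was found. The values in TPM are per gene, so they do not say from which start Grb10 or Mest was read.

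MAF proteins bind elements that contain TGCTGA, extended in the fuller element to TGCTGAC. Both strings were searched on both strands, and every match to the longer string is also a match to the shorter one. Of the 13 windows found for 9 of the 10 genes, 1 held TGCTGA in its 250 upstream bases, the second Meg3 window, and TGCTGAC was in 0 of them. Over all 32851 windows, 16.1% held TGCTGA and 3.8% held TGCTGAC in the same bases. None of the printed sequences held either string, which says only that those letters are not in those windows.

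Mafa itself averaged 440.6 TPM in WT and 116.7 TPM in Het islets of the C57 background, and 597.7 and 151.6 TPM in those of the Mixed background. Every library had the markers of islets, with insulin transcripts between 21.5% and 44.2% of all TPM, and between 14812 and 16133 genes at or above 1 TPM. The insulin share was lower in Het (28.5% to 34.5% in C57, 21.5% to 30.8% in Mixed) than in WT (34.6% to 41.7% and 36.4% to 44.2%). Insulin is only a part of the list of 8 beta-cell markers. In C57 Het 1 of the 8 was higher (G6pc2, log2 change 0.38) and 1 lower (Ins1, -0.61). In Mixed Het 0 of them were higher and 5 lower. All 4 alpha-cell and all 3 delta-cell markers were higher in Het on both backgrounds. Summed alpha-cell markers ranged from 17400 to 52900 TPM in C57 WT, 65900 to 110000 in C57 Het, 14700 to 26400 in Mixed WT and 61100 to 102000 in Mixed Het. Summed delta-cell markers ranged from 5540 to 8890, 10000 to 13900, 7650 to 16000 and 14700 to 32000 TPM in the same order. Of the 8 mesenchymal markers tested, 5 were higher in Mixed Het than in Mixed WT, with sums of 132 to 561 against 138 to 210 TPM. All 6 immune markers tested were higher in Mixed Het, with sums of 291 to 577 against 190 to 256 TPM, while 2 were lower in C57 Het, with 205 to 288 against 315 to 398 TPM. Of the 6 endothelial markers, 3 were lower in C57 Het, with sums of 279 to 343 against 291 to 747 TPM, and 0 passed in Mixed, with 330 to 627 against 364 to 424 TPM. The 8 acinar markers were all higher in C57 Het than in C57 WT, with sums of 247 to 1560 against 199 to 375 TPM. In Mixed Het 1 of the 8 was higher, with sums of 586 to 1140 against 165 to 825 TPM. Of the 5 duct markers tested, 2 were higher in C57 Het, with sums of 166 to 283 against 127 to 146 TPM. All 5 were higher in Mixed Het. No marker on these lists was at 0 in every sample. In bulk islet RNA a change in the share of a cell type and a change of RNA within each cell cannot be told apart, and the part of cell makeup in the results below was not tested.

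Some libraries stood apart. C57 WT replicate 1 had the highest value of its group for 9 of the 10 imprinted genes, all but Plagl1, and it also had the lowest beta-cell and the highest alpha-cell marker sum of its group. Mixed Het replicate 1 had the highest value of its group for 8 of the 10, all but Nnat and Mirg, and the lowest insulin share of all libraries. C57 WT replicates 1 and 5 and Mixed WT replicate 4 had a mitochondrially encoded share above 8% (8.09%, 9.76% and 9.76%), against 2.8% to 6.03% elsewhere. With Nnat set aside, 4 of the other 9 genes passed the test in C57 without C57 WT replicate 1, and 4 without all 3 high-mitochondrial libraries, against 5 with every library. Over all genes, C57 calls were 4422 higher and 1940 lower with every library. They were 4210 and 1380 without C57 WT replicate 1, and 2836 and 1023 without the 3 high-mitochondrial libraries. In the Mixed background 6 of the 9 genes other than Nnat passed without C57 WT replicate 1 and 5 without Mixed Het replicate 1. Leaving out a C57 library does not move the Mixed changes themselves, only their SE and adjusted p. Without the 3 high-mitochondrial libraries 5 passed, against 5 with every library. Over all genes, Mixed calls were 5137 higher and 2258 lower with every library. They were 5194 and 2351 without C57 WT replicate 1, and 4597 and 2433 without Mixed Het replicate 1. Without the 3 high-mitochondrial libraries they were 5039 and 2121.

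The imprinted genes covered a wide range of expression. TPM is scaled by transcript length, so levels can be compared between genes. In C57 WT islets Peg3 (585.9 ± 214 TPM, SD, n = 5) and Meg3 (562.2 ± 188 TPM) were highest, and their ranges overlapped almost fully. Nnat followed at 195.8 ± 55.9 TPM, below every value of Peg3 and Meg3, and then Rian at 84.29 ± 19.8 TPM, with no overlap between Nnat and Rian. Grb10 (17.9 ± 4.38 TPM) and Mirg (17.04 ± 5.0 TPM) did not differ beyond their spread, nor did Mest (5.368 ± 1.74 TPM) and Peg10 (5.178 ± 3.69 TPM). Plagl1 (2.504 ± 0.495 TPM) and Dlk1 (1.44 ± 0.828 TPM) were lowest. Peg3 and Meg3 stood at the 99.6 and 99.5 percentiles of all genes tested in this group, and Dlk1 at the 13.7 percentile. In C57 Het islets the mean of Nnat, at 30.24 TPM, had passed below that of Rian (72.88 TPM) and Grb10 (37.98 TPM).

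**Figure D1:**
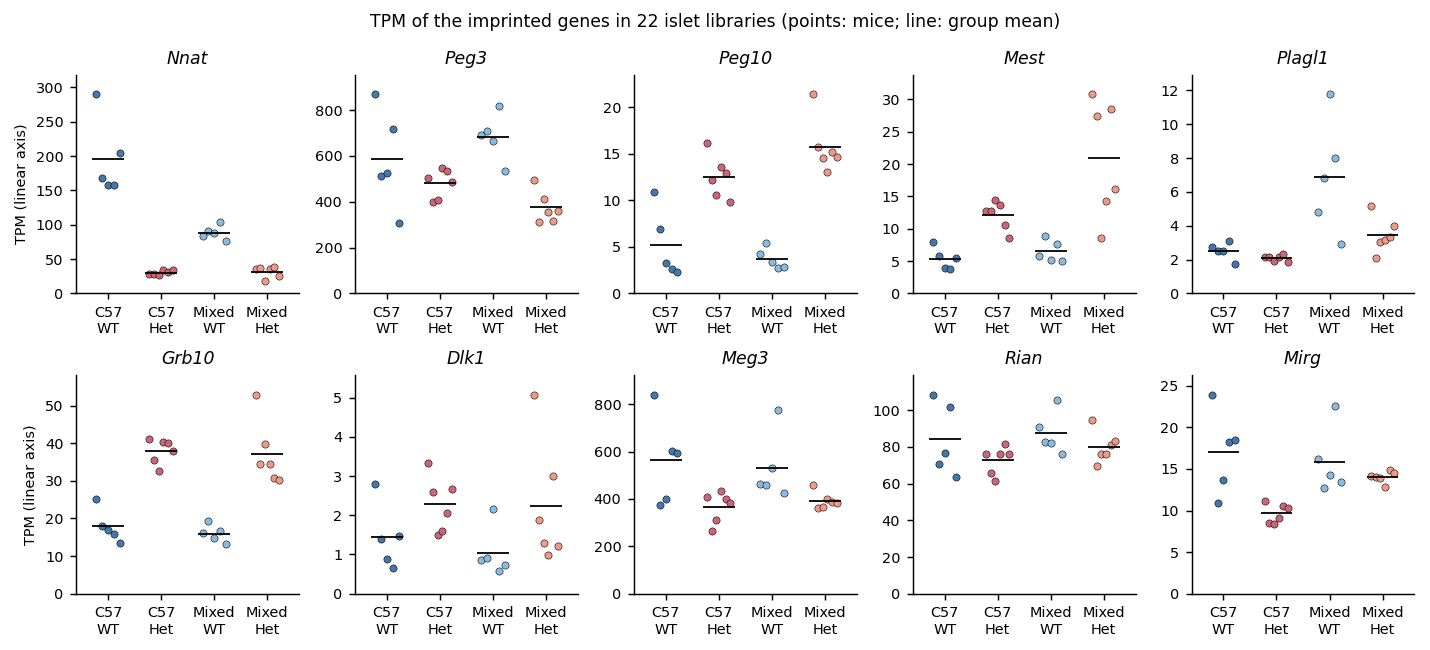
TPM of each of the 10 imprinted genes in every mouse, on a linear axis, by genotype and background; each point is 1 mouse and each line a group mean. Nnat is lower, and Grb10 higher, in every Het mouse than in every WT mouse of the same background.

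Read across the whole group, Het differed from WT in both directions. In C57 the fall of Nnat chose the group and is not counted. Of the other 9 genes, 5 passed the threshold of an adjusted p of 0.05 (limma over all genes, Benjamini-Hochberg): Peg10, Grb10 and Mest were higher and Meg3 and Mirg lower. Over all genes tested 38.0% passed, 26.4% higher and 11.6% lower. In Mixed, 6 of the 10 passed: Peg10, Grb10 and Mest were higher and Nnat, Peg3 and Plagl1 lower. Over all genes 44.1% passed there, 30.7% higher and 13.5% lower. The changes in Peg10, Grb10 and Mest passed in both backgrounds in the same direction, as did 22.4% of all genes. The median log2 change of the 10, Nnat included, was -0.18 in C57 and -0.13 in Mixed, beside 0.08 and 0.10 over all genes. Because the 10 genes were chosen with such values known, their share against that of all genes is a description only.

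The C57 groups of Grb10 and Mest did not overlap at all, and 21.0% of all genes had separate C57 groups. Nnat was separate too, but its C57 fall chose the group, so it is not counted there. In Mixed the groups were separate for 4 of the 10 (Nnat, Peg3, Peg10 and Grb10), against 23.6% of all genes. All 10 genes had the same sign of change on both backgrounds, some of them near 0, such as Rian at -0.18 and -0.12. How many of all genes kept 1 sign was not counted, so this is a description only. Rescaling the libraries by the median of ratios moved the median log2 change of all genes from 0.0827 to -0.014 on C57 and from 0.104 to -0.0102 on Mixed. It also moved the split of calls, from 4422 higher and 1940 lower to 3293 and 3300 on C57, and from 5137 and 2258 to 3663 and 3751 on Mixed. No direction among the 10 genes flipped under that or any other rescaling that was tried.

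**Figure D2:**
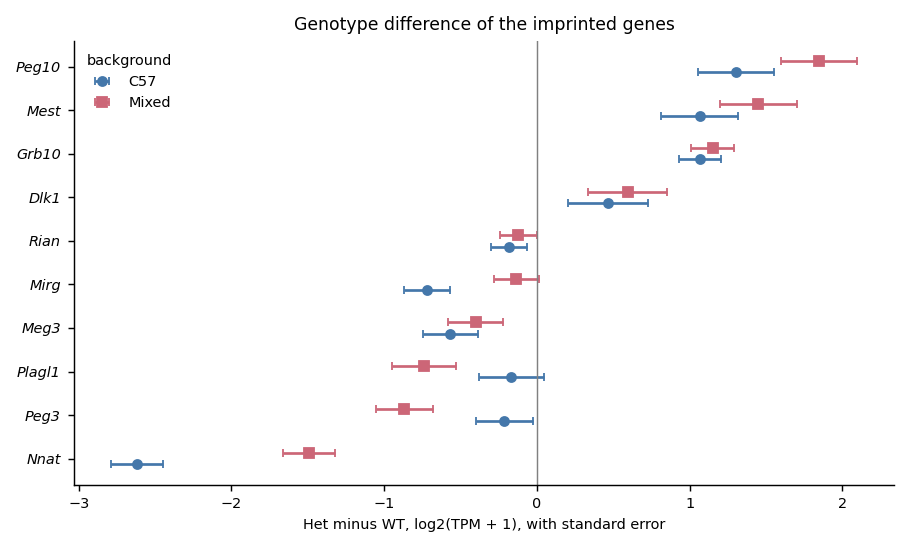
Het minus WT difference of each imprinted gene on the log2(TPM + 1) scale, with its standard error from the limma fit, for C57 (circles) and Mixed (squares). Peg10, Mest and Grb10 lie to the right of 0 and Nnat to the left on both backgrounds; the C57 point of Nnat, at -2.62, lies farthest from 0.

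Nnat (ENSMUSG00000067786, chromosome 2) encodes neuronatin, a small membrane protein of the endoplasmic reticulum that in beta cells associates with the signal peptidase complex and aids the processing of newly made preproinsulin. In C57 WT islets it was at 289.7, 168.6, 158.3, 157.5 and 204.8 TPM, and in C57 Het islets at 28.08, 28.62, 26.42, 33.46, 31.35 and 33.51 TPM. All 6 C57 Het mice lay far below the lowest C57 WT mouse and close to each other. The C57 Het mean of 30.24 ± 2.97 TPM (SD, n = 6) was 15.4% of the WT mean, 6.47-fold lower, and the fitted log2 change was -2.62 (SE 0.17). Without C57 WT replicate 1 it was -2.47.

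On the Mixed background Nnat was at 83.86, 90.55, 88.22, 104.3 and 76.16 TPM in WT and at 35.97, 37.52, 17.97, 35.7, 37.97 and 25.44 TPM in Het islets. Again all 6 Het mice lay below all 5 WT mice. Nnat fell 2.79-fold there, from 88.63 ± 10.4 to 31.76 ± 8.19 TPM, and the log2 change of -1.49 (SE 0.17) passed the test with an adjusted p of 5.9e-07. The difference itself uses Mixed libraries alone, while its SE comes from the spread within all 4 groups. In a fit of the 11 Mixed samples alone it was -1.49 (SE 0.18, adjusted p = 5.72e-05).

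The difference between backgrounds lay in the WT mice. Mixed WT averaged 2.21-fold less Nnat than C57 WT, a log2 difference of -1.10 (SE 0.18), and the lowest C57 WT value, 157.5 TPM, was above the highest Mixed WT value, 104.3 TPM. The Het groups, at 30.24 and 31.76 TPM, overlapped, with a log2 difference of 0.03 (SE 0.16). The genotype change was accordingly 1.13 log2 units (SE 0.24) smaller in size in Mixed than in C57, a value given without a test because the C57 libraries enter it. With the mesenchymal marker score as a covariate it was 0.67.

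Nnat lies in an intron of Blcap on the opposite strand, and Blcap, also imprinted in brain, encodes a small membrane protein. Blcap fell as well, from 54.57 ± 3.74 to 39.36 ± 3.38 TPM in C57 (log2 change -0.46, SE 0.08, adjusted p = 0.000136) and from 48.66 ± 5.35 to 34.04 ± 2.85 TPM in Mixed (-0.50, SE 0.08, adjusted p = 3.01e-05). The fall of Blcap was smaller than that of Nnat, so their ratio rose, and in C57 it turned over in every Het mouse. Blcap was 29.1% ± 5.82 (SD) of Nnat in C57 WT and 130.4% ± 6.30 in C57 Het, with ranges of 20.7% to 35.1% and 120.5% to 139.2%. In Mixed the ratio was 55.9% ± 11.8 in WT and 113.1% ± 28.1 in Het, with ranges of 40.7% to 71.5% and 90.6% to 163.7%. Blcap stayed below Nnat in Mixed Het replicates 1, 2 and 5, at 99.9%, 90.6% and 92.3%. Whether the counting used strand is not given in the sources used here, so reads of 1 of these genes counted to the other cannot be told apart.

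The partners of neuronatin were read from a list of 7 genes for the signal peptidase complex and the SERCA calcium pumps. Of these, 4 were higher and 0 lower in C57 Het (Atp2a2, Sec11a, Spcs1, Spcs3), and 3 higher and 0 lower in Mixed Het (Sec11a, Sec11c, Spcs1). That is 57.1% and 42.9% of the list, beside 38.0% and 44.1% of all genes. Atp2a2, a SERCA pump, rose in C57 (0.39, SE 0.13, adjusted p = 0.02) and had -0.27 in Mixed (adjusted p = 0.0957), and the difference between these changes passed (-0.66, SE 0.18, adjusted p = 0.0317). Spcs1, a subunit of the signal peptidase complex, rose from 193.9 ± 24.7 to 296.7 ± 37.9 TPM in C57 (log2 change 0.61, SE 0.10, adjusted p = 6.71e-05) and from 218.7 ± 21.7 to 394.8 ± 29.6 TPM in Mixed (0.85, SE 0.10, adjusted p = 5.67e-07). The median of the list was 0.22 in C57 and 0.25 in Mixed. Spcs3, another subunit, rose in C57 (0.41, adjusted p = 0.01), with 0.09 in Mixed (adjusted p = 0.548). Sec11a, a catalytic subunit, rose in C57 (0.22, adjusted p = 0.0392) and also in Mixed (0.50, adjusted p = 4.58e-05). Sec11c, the other catalytic subunit on the list, had -0.02 in C57 (adjusted p = 0.913) and rose in Mixed (0.28, adjusted p = 0.0189). Under median-of-ratios scaling the C57 calls of Sec11a (0.10, adjusted p = 0.376) and Spcs3 (0.29, adjusted p = 0.0565) were lost. Over all alternatives the C57 call of Sec11a was lost in 13 and that of Spcs3 in 4.

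Grb10 (ENSMUSG00000020176, chromosome 11) encodes an adaptor that binds the activated insulin and IGF1 receptors and damps their signal. It was at 25.13, 18.06, 16.96, 15.8 and 13.53 TPM in C57 WT and at 41.2, 35.55, 32.69, 40.42, 40.06 and 37.91 TPM in C57 Het islets. Mixed WT islets had 16.16, 19.36, 14.7, 16.63 and 13.1 TPM and Mixed Het islets 52.9, 34.54, 39.89, 34.36, 30.74 and 30.2 TPM. Every Het mouse of either background was above every WT mouse of either background. In C57 WT replicates 1 to 5 Grb10 fell in the order of the summed alpha-cell markers (52940, 45570, 39090, 21940 and 17380 TPM). That order did not hold within the other groups. In C57 Het the highest sum, 109600 TPM in replicate 3, went with the lowest Grb10. The part of alpha cells in the Grb10 result was not tested. The rise was 2.12-fold in C57 (log2 change 1.07, SE 0.14, adjusted p = 7.38e-06) and 2.32-fold in Mixed (1.15, SE 0.14, adjusted p = 1.29e-06). The changes on the backgrounds differed by 0.08 (SE 0.20, adjusted p = 0.827).

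Ddc, the decarboxylase gene next to Grb10, had log2 changes of -0.23 on C57 (adjusted p = 0.179) and -0.23 on Mixed (adjusted p = 0.157), from WT means of 200.1 and 175.7 TPM. Of 13 genes of insulin and IGF receptor signalling, 5 were higher and 2 lower in C57 Het, and 0 higher and 4 lower in Mixed Het. That is 53.8% and 30.8% of the list, beside 38.0% and 44.1% of all genes. Igf1r, the receptor for IGF1, fell in both, from 15.24 to 11.38 TPM in C57 (-0.40, SE 0.11, adjusted p = 0.00608) and from 18.26 to 13.19 TPM in Mixed (-0.44, SE 0.11, adjusted p = 0.00234). Mtor, the growth kinase, rose in C57 (0.49, adjusted p = 0.000681) and had 0.19 in Mixed (adjusted p = 0.126). Pik3r1, a regulatory subunit of PI3-kinase, fell in Mixed (-0.46, adjusted p = 0.00787) and had -0.02 in C57 (adjusted p = 0.938). With the mesenchymal score as a covariate the Mixed calls of Igf1r (-0.38, adjusted p = 0.0536) and Pik3r1 (-0.47, adjusted p = 0.0615) were lost.

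Peg10 (ENSMUSG00000092035, chromosome 6) derives from a retrotransposon, encodes gag-like proteins and is needed for the placenta. It was at 10.87, 6.916, 3.255, 2.606 and 2.243 TPM in C57 WT and at 16.11, 12.22, 10.58, 13.57, 12.94 and 9.825 TPM in C57 Het islets. The C57 groups overlapped only through WT replicate 1, whose value lay among the Het mice. In C57 WT Peg10 fell in the order of the summed alpha-cell markers, from 52940 TPM in replicate 1 to 17380 TPM in replicate 5. That order did not hold within the other groups, and the part of alpha cells in the Peg10 result was not tested. Mixed WT islets had 4.188, 5.399, 3.329, 2.726 and 2.865 TPM and Mixed Het islets 21.37, 15.67, 14.58, 13.03, 15.17 and 14.63 TPM, with no overlap. Peg10 rose 2.42-fold in C57 (log2 change 1.30, SE 0.25, adjusted p = 0.000419) and 4.25-fold in Mixed (1.85, SE 0.25, adjusted p = 5.14e-06). The difference between these changes, 0.54 (SE 0.35), did not pass the test (adjusted p = 0.341).

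Sgce, the epsilon-sarcoglycan gene that shares an imprinted domain with Peg10, rose too, from 2.404 ± 0.688 to 3.881 ± 0.622 TPM in C57 (log2 change 0.53, SE 0.13, adjusted p = 0.00297) and from 1.771 ± 0.361 to 4.86 ± 0.847 TPM in Mixed (1.08, SE 0.13, adjusted p = 1.19e-06). Asb4, an ankyrin-repeat gene of the same domain, rose from 2.37 to 4.267 TPM in C57 (0.64, adjusted p = 0.00393) and from 2.899 to 5.11 TPM in Mixed (0.67, adjusted p = 0.00209). The call of Asb4 was lost with the acinar score as a covariate in C57 (0.54, adjusted p = 0.061) and with the mesenchymal score in Mixed (0.58, adjusted p = 0.0517). Ppp1r9a, a further neighbour, had a change of 0.21 on C57 (adjusted p = 0.229) and did not pass on Mixed either (adjusted p = 0.995). The ratio of Sgce to Peg10 was 59.2% ± 25.5 (SD) in C57 WT and 31.5% ± 5.27 in C57 Het, and 50.5% ± 15.1 and 31.1% ± 3.73 in Mixed, with overlapping ranges on both backgrounds.

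Mest (ENSMUSG00000051855, chromosome 6, in a separate domain from Peg10) encodes a hydrolase-like membrane protein and marks growing fat tissue. It was at 8.02, 5.764, 3.894, 3.715 and 5.448 TPM in C57 WT and at 12.81, 12.72, 14.47, 13.66, 10.5 and 8.499 TPM in C57 Het islets. The lowest Het mouse was just above the highest WT mouse. Mixed WT islets had 5.809, 8.839, 5.173, 7.708 and 5.065 TPM, and Mixed Het islets were spread over 30.76, 27.42, 8.541, 14.27, 28.52 and 16.17 TPM. In Mixed the groups overlapped through Het replicate 3, and replicates 1, 2 and 5 were highest. Mest rose 2.26-fold in C57 (log2 change 1.06, SE 0.25, adjusted p = 0.00249) and 3.21-fold in Mixed (1.45, SE 0.25, adjusted p = 9.96e-05).

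The Mixed Het mice with the most Mest also had the highest duct-marker sums, at 440.1, 544.4 and 383.6 TPM in replicates 1, 2 and 5, against 177.6 TPM in replicate 3, which had the least Mest, and 172.8 TPM in replicate 4. Replicate 6 did not follow that order, with a duct-marker sum of 362.9 TPM, close to that of replicate 5, and 16.17 TPM of Mest. The duct-marker sum ranged from 112 to 170 TPM in Mixed WT and 173 to 544 TPM in Mixed Het, and all 5 duct markers tested were higher in Mixed Het. The delta-cell marker sums of Mixed Het were likewise highest in replicates 1, 2 and 5, at 29870, 27680 and 32000 TPM. Replicate 3 was lowest at 14670 TPM, with 27370 TPM in replicate 4 and 24230 TPM in replicate 6. The part of duct or delta cells in the Mest result was not tested. With the mesenchymal score as a covariate the Mixed change of Mest was 0.87 (SE 0.29, adjusted p = 0.0298). Mest and Copg2, a subunit gene of the COPI coat, overlap in their exons on opposite strands. Copg2 rose from 19.83 ± 2.22 to 27.22 ± 2.19 TPM in C57 (0.44, SE 0.08, adjusted p = 0.000393) and from 19.14 ± 2.37 to 23.12 ± 1.62 TPM in Mixed (0.27, SE 0.08, adjusted p = 0.0136). Under median-of-ratios scaling the Mixed call of Copg2 was lost (0.14, adjusted p = 0.118). Copg2 was 402.7% ± 136 (SD) of Mest in C57 WT, 232.2% ± 50.3 in C57 Het, 307.3% ± 76.2 in Mixed WT and 135.1% ± 72.1 in Mixed Het.

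**Figure D3:**
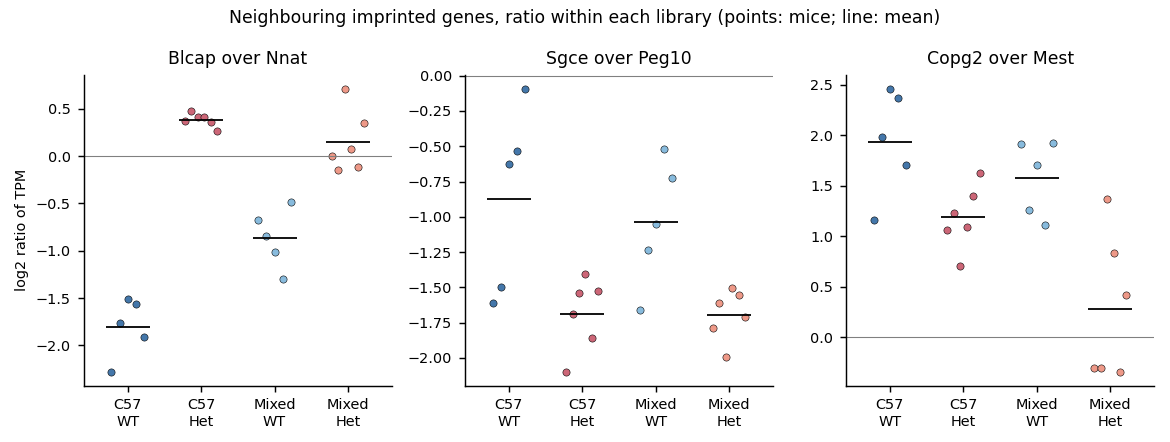
Ratio of a neighbouring imprinted gene to Nnat, Peg10 or Mest within each library, as log2 of the TPM ratio, by group; points are mice and lines are group means. The ratio of Blcap to Nnat is below 0 in every WT mouse and above 0 in every C57 Het mouse. Mixed Het mice lie on both sides of 0. The other ratios are lower on average in Het.

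Dlk1, Meg3, Rian and Mirg lie in the Dlk1-Dio3 imprinted domain of chromosome 12. Dlk1 (ENSMUSG00000040856) encodes a membrane protein with EGF-like repeats that is related to Notch ligands. It was low, at 2.792, 1.387, 0.893, 0.6582 and 1.469 TPM in C57 WT and at 3.335, 2.596, 1.497, 1.6, 2.05 and 2.675 TPM in C57 Het islets. Mixed WT islets had 0.8565, 0.9126, 2.151, 0.572 and 0.7408 TPM and Mixed Het islets 5.073, 1.879, 1.301, 0.9943, 3.006 and 1.221 TPM. The genotypes overlapped on both backgrounds. The log2 changes of 0.46 in C57 (SE 0.26, adjusted p = 0.167) and 0.59 in Mixed (SE 0.26, adjusted p = 0.0704) did not pass the test.

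Dlk1 reached 1 TPM in 4 of 10 WT and 11 of 12 Het samples, so the Het samples carried it through the filter. The threshold was crossed in Mixed without Mixed WT replicate 3 (0.76, adjusted p = 0.0283) or Mixed Het replicate 4 (0.71, adjusted p = 0.0364), and in C57 with sample weights (0.74, adjusted p = 0.00582). Since the Het mice carried the gene into the test, no change of Dlk1 is read from these values. The other protein-coding genes of the domain, Rtl1 and Dio3, did not pass the filter on low values. Begain, at its edge, averaged 1.012 TPM in WT and 0.6241 TPM in Het islets on C57, with a log2 change of -0.26 (adjusted p = 0.383), and 0.6699 and 1.021 TPM in Mixed, with 0.26 (adjusted p = 0.363).

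Meg3 (ENSMUSG00000021268) is a long noncoding RNA of the maternal chromosome and is known to be abundant in beta cells. It was at 839.7, 375.0, 400.8, 602.6 and 593.0 TPM in C57 WT and at 408.0, 266.5, 311.7, 435.4, 400.3 and 384.4 TPM in C57 Het islets. The groups overlapped, with 2 WT mice, replicates 2 and 3, inside the Het range. The fall of 1.53-fold in the mean (log2 change -0.57, SE 0.18) passed the test with an adjusted p of 0.0162. It was not past the threshold without C57 WT replicate 1 (-0.41, adjusted p = 0.0656), without the 3 high-mitochondrial libraries (-0.31, adjusted p = 0.15), with sample weights (-0.25, adjusted p = 0.134) or with the acinar score as a covariate (-0.50, adjusted p = 0.116).

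On the Mixed background Meg3 was at 461.5, 460.6, 531.2, 773.6 and 426.2 TPM in WT and at 460.7, 363.4, 365.8, 399.6, 385.6 and 382.6 TPM in Het islets. Most Het mice were below all WT mice, and Het replicate 1 was not. The log2 change of -0.40 (SE 0.18) did not pass (adjusted p = 0.0737). It passed under median-of-ratios scaling (-0.54, adjusted p = 0.0179), quantile normalization (-0.59, adjusted p = 0.0141) and scaling to the total without the most abundant genes (-0.53, adjusted p = 0.0195). It also passed in a fit of the Mixed samples alone (-0.40, adjusted p = 0.0314), without C57 WT replicate 1 (-0.40, adjusted p = 0.0422) and without Mixed WT replicate 5 (-0.47, adjusted p = 0.0499).

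Rian (ENSMUSG00000097451) is the host RNA of a cluster of C/D small nucleolar RNAs. It ranged from 63.64 to 108.5 TPM in C57 WT (median 76.79), 61.61 to 81.58 in C57 Het (median 76.06), 75.94 to 105.8 in Mixed WT (median 82.89) and 69.81 to 94.58 in Mixed Het (median 78.73). The groups overlapped on both backgrounds. Its log2 changes of -0.18 in C57 (SE 0.12, adjusted p = 0.242) and -0.12 in Mixed (SE 0.12, adjusted p = 0.429) did not pass the test. Under median-of-ratios scaling both did, at -0.30 (adjusted p = 0.0169) and -0.26 (adjusted p = 0.0334), and in C57 so did quantile normalization (-0.30, adjusted p = 0.0333) and the total without the most abundant genes (-0.30, adjusted p = 0.0301).

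Mirg (ENSMUSG00000097391) is the host RNA of a large microRNA cluster. It was at 23.92, 10.89, 13.67, 18.22 and 18.5 TPM in C57 WT and at 11.17, 8.506, 8.423, 9.086, 10.5 and 10.34 TPM in C57 Het islets. The groups overlapped narrowly, with WT replicate 2 just under Het replicate 1. Mirg fell 1.76-fold in C57 (log2 change -0.72, SE 0.15, adjusted p = 0.000848). Mixed WT islets had 16.14, 12.74, 14.21, 22.54 and 13.47 TPM and Mixed Het islets 14.11, 14.03, 13.92, 12.86, 14.87 and 14.46 TPM. There the Het mice lay within the WT range, and the log2 change of -0.13 (SE 0.15) did not pass (adjusted p = 0.49). The test of the difference between backgrounds, 0.58 (SE 0.21), did not pass either (adjusted p = 0.0889).

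The order of the 3 noncoding RNAs, Meg3 above Rian above Mirg, held in every library. Rian was 15.7% ± 3.73 (SD, n = 5) of Meg3 in C57 WT and 20.1% ± 2.47 (n = 6) in C57 Het, and 16.9% ± 2.37 and 20.4% ± 1.03 in Mixed, with overlapping ranges on both backgrounds. Mirg was 20.4% ± 5.38 of Rian in C57 WT (15.4% to 29.1%) and 13.3% ± 0.925 in C57 Het (11.9% to 14.7%), with no overlap. On Mixed the WT ratio was 17.9% ± 2.15 and the Het ratio 17.7% ± 1.74. These ratios were not tested. Annotation places 19 small RNA and other genes within Rian and 15 within Mirg, and Meg3 overlaps a gene on the other strand, so reads of those cannot be told apart from their hosts.

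**Figure D4:**
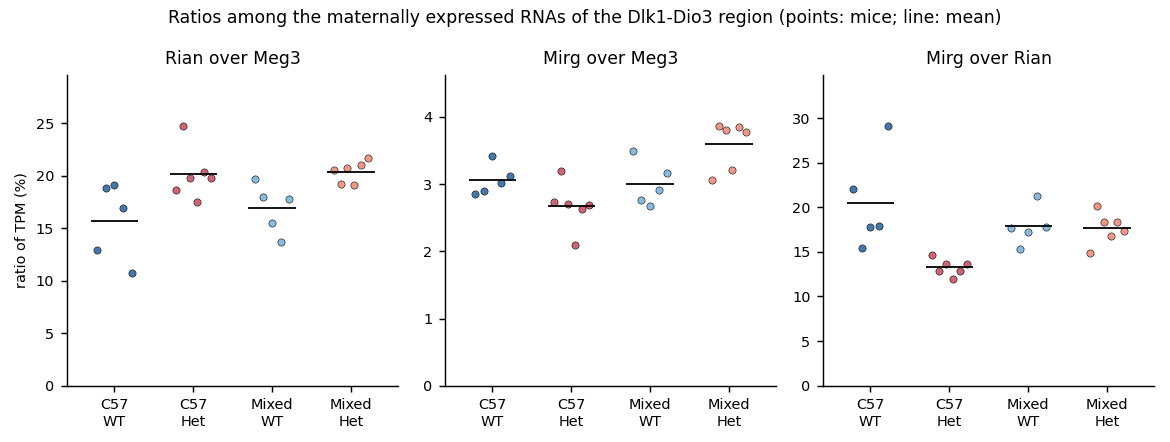
Ratios of TPM, in percent, among Meg3, Rian and Mirg within each library, by group; points are mice, lines are group means, and the vertical axes start at 0. Mirg over Rian is lower in all 6 C57 Het mice than in all 5 C57 WT mice, while the Mixed groups overlap.

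The Notch pathway, to which Dlk1 is linked, was read from 13 genes. In C57 Het 2 were higher and 4 lower, and in Mixed Het 3 were higher and 3 lower. That is 46.2% of the list each time, beside 38.0% and 44.1% of all genes. Dll4, a Notch ligand, fell from 21.29 ± 3.67 to 10.35 ± 1.39 TPM in C57 (log2 change -0.97, SE 0.14, adjusted p = 1.89e-05) and from 21.61 ± 2.09 to 12.28 ± 2.91 TPM in Mixed (-0.79, SE 0.14, adjusted p = 8.54e-05). Hes1, a transcription factor that Notch induces, fell in C57 (-0.86, adjusted p = 0.00206) and had -0.21 in Mixed (adjusted p = 0.400). Notch4, a receptor of endothelial cells, fell in C57 (-0.44, adjusted p = 0.0255) and had 0.11 in Mixed (adjusted p = 0.604), and it is named after its values were seen. Of the 6 endothelial markers, 3 (Egfl7, Esam and Kdr) were likewise lower in C57 Het and 0 in Mixed Het, and their part in the Notch genes was not tested. Notch2, a receptor, averaged 0.7045 TPM in WT and 1.384 TPM in Het islets on C57, and 0.8076 and 2.114 TPM on Mixed. It reached 1 TPM in all 12 Het mice and in 2 WT mice, so it passed the filter through the genotype where it is high, and its place among the higher genes supports nothing.

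Peg3 (ENSMUSG00000002265, chromosome 7) encodes a large zinc-finger protein that affects growth and maternal care. It was at 868.6, 514.3, 524.4, 715.8 and 306.5 TPM in C57 WT and at 504.0, 399.7, 407.7, 548.6, 532.9 and 485.6 TPM in C57 Het islets. The Het mice lay inside the wide WT range, and WT replicate 5, the lowest, was also the library least like the others of its group. The log2 change of -0.21 (SE 0.19) did not pass the test (adjusted p = 0.388). Without that replicate it was -0.43 and passed (adjusted p = 0.0421), and without C57 WT replicate 1 it was -0.05 (adjusted p = 0.854).

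In Mixed WT islets Peg3 was at 692.1, 709.0, 664.3, 819.0 and 535.9 TPM, and in Mixed Het islets at 496.2, 311.6, 413.0, 356.0, 316.2 and 361.0 TPM. All 6 Het mice were below all 5 WT mice. Peg3 fell 1.82-fold, and its log2 change of -0.87 (SE 0.19) passed with an adjusted p of 0.000823. The test of the difference between backgrounds, -0.66 (SE 0.27), did not pass (adjusted p = 0.124). Usp29 and Zim1, imprinted neighbours of Peg3, did not pass the test on either background. Zim1 averaged between 56.49 and 58.26 TPM in all 4 groups, with adjusted p of 0.778 in C57 and 0.928 in Mixed, and Usp29 averaged between 5.692 and 6.534 TPM, with 0.414 and 0.604.

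Plagl1 (ENSMUSG00000019817, chromosome 10) encodes a zinc-finger protein whose overexpression in people is tied to transient neonatal diabetes. It was at 2.726, 2.49, 2.51, 3.071 and 1.723 TPM in C57 WT and at 2.146, 2.158, 1.941, 2.126, 2.338 and 1.882 TPM in C57 Het islets, with a log2 change of -0.17 (SE 0.21, adjusted p = 0.561). Mixed WT islets were higher and more spread, at 4.815, 6.834, 11.76, 7.985 and 2.939 TPM, and Mixed Het islets had 5.187, 2.1, 3.053, 3.165, 3.337 and 3.971 TPM. The Mixed genotypes overlapped through WT replicates 1 and 5. Plagl1 fell 1.98-fold in Mixed, and its log2 change of -0.74 (SE 0.21) passed with an adjusted p of 0.00707.

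The backgrounds were also compared within each genotype. Between Mixed WT and C57 WT, 1 of the 9 genes other than Nnat passed, Plagl1, higher in Mixed; the lower Nnat of Mixed WT is described above without a test. Over all genes 11.3% passed, 6.30% higher and 4.99% lower. Plagl1 was 2.74-fold higher in Mixed WT (log2 difference 1.07, SE 0.22, adjusted p = 0.00276), with overlap only between the lowest Mixed WT and the highest C57 WT mouse. Without the 3 high-mitochondrial libraries it did not pass (0.91, adjusted p = 0.0587). Over all genes 6.12% had WT groups that did not overlap. Among the 10 only Nnat did, which is a description because the C57 libraries enter it.

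Between Mixed Het and C57 Het, 1 of the 10 genes passed, Mirg, higher in Mixed (log2 difference 0.50, SE 0.14, adjusted p = 0.0153), while 20.5% of all genes passed, 13.3% higher and 7.13% lower. The Mirg values of the Het groups did not overlap, 1 of the 10 genes against 9.85% of all genes, and its call was lost with the mesenchymal score as a covariate (0.36, adjusted p = 0.414). Mest in Mixed Het (0.64, adjusted p = 0.0652) and Plagl1 (0.50, adjusted p = 0.0835) did not pass. For the difference between the genotype changes on the backgrounds, 7.36% of all genes passed, 4.62% higher and 2.74% lower in Mixed. Of the 9 genes other than Nnat, 0 passed.

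A wider list of 47 imprinted genes was read in the same fit, with 46 in the table and 32 tested. In C57 Het 14 passed, 11 higher and 3 lower, which is 43.8% against 38.0% of all genes, with a median log2 change of 0.21. In Mixed Het 15 passed, 10 higher and 5 lower, which is 46.9% against 44.1%, with a median of 0.24. The 11 genes that passed in both moved in the same direction in each: Asb4, Copg2, Gnas, H13, Igf2r, Ndn, Sgce and Slc38a4 were higher and Blcap, Kcnq1ot1 and Rasgrf1 lower. These 11 are 78.6% of the C57 and 73.3% of the Mixed calls of the list. Over all genes the calls shared in 1 direction were 58.9% and 50.6%. The 11 include Kcnq1ot1, which is set aside below. The C57 call of Ndn was lost under median-of-ratios scaling (0.20, adjusted p = 0.0519) and quantile normalization (0.18, adjusted p = 0.0817). It was also lost with the acinar covariate (0.22, adjusted p = 0.16). The shares are therefore a description only. Genes that failed the filter included the fetal growth genes Igf2 and H19, at group means below 1 TPM.

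Rasgrf1, a paternally expressed exchange factor that activates Ras and has been tied to islet mass, had the largest fall of the wider list on both backgrounds. It went from 41.81 ± 6.44 to 21.33 ± 5.77 TPM in C57 (log2 change -0.97, SE 0.21, adjusted p = 0.00127) and from 47.26 ± 11.7 to 13.29 ± 4.46 TPM in Mixed (-1.79, SE 0.21, adjusted p = 9.42e-07). Gnas, which encodes the stimulatory G-protein alpha subunit, rose from 264.5 ± 37.6 to 383.1 ± 33.7 TPM in C57 (0.54, SE 0.11, adjusted p = 0.000711) and from 246.0 ± 32.0 to 543.4 ± 87.9 TPM in Mixed (1.13, SE 0.11, adjusted p = 6.9e-08). Igf2r, the receptor that clears IGF2, rose from 25.74 to 39.2 TPM in C57 (0.60, adjusted p = 0.000961) and from 22.3 to 32.06 TPM in Mixed (0.50, adjusted p = 0.00315). Kcnq1ot1, a noncoding antisense RNA, fell from 1.53 to 0.8036 TPM in C57 (-0.47, adjusted p = 0.00756) and from 1.589 to 1.067 TPM in Mixed (-0.32, adjusted p = 0.0493). That C57 call was lost without the 3 high-mitochondrial libraries (-0.26, adjusted p = 0.15), and the Mixed call was lost in 17 alternatives, such as a pseudocount of 0.1 (-0.54, adjusted p = 0.057), either marker covariate, or any of 12 single libraries left out. Kcnq1ot1 reached 1 TPM in all 10 WT and in 4 of 12 Het mice, so the WT mice, where it is higher, carried it through the filter, and its place among the 11 supports nothing.

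In the wider list 4 genes rose more in Mixed than in C57, which is 12.5% against 7.36% of all genes: Gnas, Kcnk9, Ndn and Snrpn. Kcnk9, a potassium leak channel, averaged 0.5503 and 0.8067 TPM in C57 WT and Het, and 0.3182 and 2.816 TPM in Mixed WT and Het. It reached 1 TPM in all 6 Mixed Het mice and in 2 others, so it passed the filter through the group where it is high, and its place among the 4 supports nothing. Ndn, which encodes necdin, went from 23.66 to 29.78 TPM in C57 and from 22.56 to 41.89 TPM in Mixed (0.54, SE 0.13, adjusted p = 0.0178). Snrpn, a splicing-protein gene of the same imprinted domain as Ndn, went from 17.79 to 19.76 TPM in C57 and from 15.83 to 24.85 TPM in Mixed (0.48, SE 0.11, adjusted p = 0.0151). The difference for Gnas was 0.59 (SE 0.15, adjusted p = 0.0248). With the mesenchymal score as a covariate 0 of the 4 passed, with differences of 0.54 for Gnas (adjusted p = 0.281), 0.51 for Ndn (adjusted p = 0.22), 0.35 for Snrpn (adjusted p = 0.313) and 1.28 for Kcnk9. Without the 3 high-mitochondrial libraries Gnas, at 0.54 (adjusted p = 0.0898), and Ndn, at 0.50 (adjusted p = 0.0831), did not pass.

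**Figure D5:**
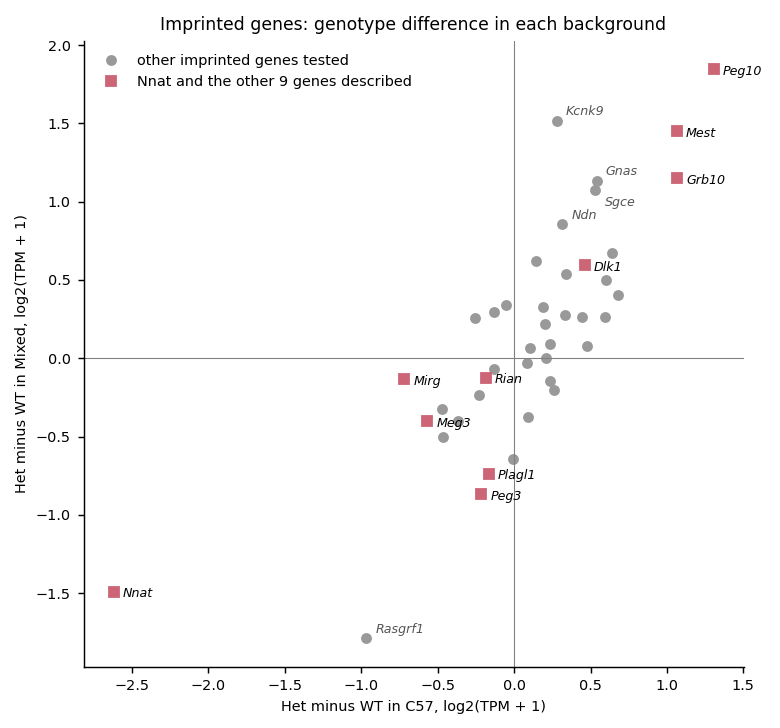
Het minus WT change in C57 (horizontal) against the change in Mixed (vertical), both as log2(TPM + 1), for Nnat and the other 9 genes described and for the wider list of imprinted genes that passed the filter. Nnat lies at the lower left, at -2.62 and -1.49, with Rasgrf1 at -0.97 and -1.79, and Peg10, Mest and Grb10 lie at the upper right.

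Genes that maintain imprints or DNA methylation were read from a list of 14, of which 12 were tested. In C57 Het 1 was higher and 1 lower, and in Mixed Het 0 were higher and 2 lower. That is 16.7% of the list each time, beside 38.0% and 44.1% of all genes. Dnmt3b, a de novo DNA methyltransferase, fell from 5.43 ± 1.56 to 3.447 ± 0.592 TPM in C57 (log2 change -0.51, SE 0.16, adjusted p = 0.0142) and from 7.58 ± 1.49 to 3.596 ± 0.848 TPM in Mixed (-0.90, SE 0.16, adjusted p = 9.43e-05). The C57 call was lost without C57 WT replicate 1 (-0.40, adjusted p = 0.0534) and with the acinar score as a covariate (-0.47, adjusted p = 0.0925). Dnmt3a, its relative, fell in Mixed (-0.62, adjusted p = 0.00268) and had -0.21 in C57 (adjusted p = 0.287), and adding the mesenchymal covariate gave -0.54 in Mixed (adjusted p = 0.0606), which did not pass. Smchd1, which keeps imprinted genes silent, rose in C57 (0.36, adjusted p = 0.00835) and had 0.14 in Mixed (adjusted p = 0.268), and adding the acinar covariate gave 0.35 in C57 (adjusted p = 0.0597), which did not pass. Methylation itself was not measured in these data.

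The genes whose profiles were most like each imprinted gene were found from the mean absolute difference between log2(TPM + 1) profiles over the 22 samples, each centred on its own mean. Nearest to Nnat were Th, the rate-limiting enzyme of catecholamine synthesis, at 0.35 and Ffar3, a receptor for short-chain fatty acids, at 0.37, beside a median of 1.07 over all genes. Nearest to Mest was Hhex, a delta-cell transcription factor that is on the delta-cell marker list, at 0.19 against a median of 0.64, followed by Fmo2 and Cldn9. Peg10 was nearest to Sorcs2 at 0.23, then Mamld1 and Ffar4, and Grb10 to Map3k15 at 0.13, then Ptprd and Man1c1. Th fell by 2.35 in C57 and by 2.26 in Mixed, so its Mixed fall was larger than that of Nnat.

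Among the others, Peg3 was nearest to Tet2 at 0.09 and then Grk3, Meg3 to Snrnp70 at 0.08 and then Pan2 and Fam193b, and Rian to Gga3 at 0.06 and then Cpsf7 and Secisbp2. Mirg was nearest to Pick1 at 0.12 among named genes and then Zfp692, Plagl1 to Dxo at 0.18 and then Syvn1 and Stk19, and Dlk1 to Fbxw24 at 0.26 and then Pxdn. In no case was the nearest gene another of the 10. For Mirg the distance to Meg3, its neighbour in the domain, was 0.17.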

How the data were processed

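The authors deposited 1 table of TPM for 57010 genes and 22 libraries. The libraries were made from poly(A) RNA and sequenced as 150-base pairs, per the labels' protocols. Per the submitters' processing notes, STAR 2.7.10b, MultiQC 1.7 and mouse build mm39 were used. The counting tool, annotation and use of strand are not given in the sources used here. TPM keeps no depth, so the depth is unknown and no interval that needs counts is given. TPM also moves when abundant transcripts such as insulin do.

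The analysis used log2(TPM + 1), on which changes of low genes come out too small, for the 16756 genes that reached a TPM of 1 in 5 or more samples. limma 3.58.1 (R 4.3.3) fitted the 4 group means (eBayes with trend; two-sided; Benjamini-Hochberg over all genes; threshold 0.05), and was tested on simulated data first. Group means, SDs and folds are of TPM. Each library is 1 mouse, and replicate numbers only name samples.

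The 10 genes and all lists were chosen with earlier results of these data known. Beside the 10, the text names domain neighbours, up to 8 other imprinted genes with an adjusted p under 0.05 and separate groups (7 met this), up to 3 called genes per pathway list, and the 3 nearest profiles per gene, provisional symbols not named. Sets of samples without high-mitochondrial libraries were chosen after seeing the data. Gene overlaps and chromosomes are from GENCODE M21 and promoter sequence from RefSeq (GRCm38.p6), used for sequence only. Alternatives covered the pseudocount, filter, scaling, marker covariates, sample weights and each replicate.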

Additional observations from a re-analysis of the deposited data

Results flagged for a closer look

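Single mice stood clear of their group (a gap to the nearest mouse larger than Dixon's limit) in 3 of the 40 combinations of gene and group, and chance alone gives about 1 in 20. In Mixed Het replicate 1, Peg10 was at 21.37 TPM with the next mouse at 15.67, and Meg3 was at 460.7 TPM with the next at 399.6. In Mixed WT replicate 3, Dlk1 was at 2.151 TPM with the next at 0.9126.

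The genotype change of Nnat differed between the backgrounds by 1.13 on the log2 scale. It was singled out by the limma test of that difference, but the C57 change was known when the gene was chosen, so the value is a description.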

How the results depend on the processing

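No result reversed under the alternatives that were run. The Het against WT changes of Peg10, Grb10 and Mest in both backgrounds, and of Nnat in Mixed, stayed on the same side of the threshold under all 34 alternatives. Many of these left out a library of the other background, which cannot move the change itself, only its SE and adjusted p. The marker covariates were acinar and mesenchymal, and no alpha-cell or delta-cell score was used. The log2 changes ranged from -2.76 to -2.38 and -1.88 to -1.34 for Nnat, 1.12 to 1.59 and 1.68 to 2.09 for Peg10, 0.94 to 1.19 and 1.01 to 1.25 for Grb10, and 0.96 to 1.27 and 0.87 to 1.66 for Mest, in C57 and Mixed.

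Counts that moved by over 1.5 times are given next, and the cause was not tested. The counts over the 10 genes include Nnat, whose values are a description wherever C57 libraries enter. In the interaction 1 of the 10, Nnat, was counted, but 0 were with the mesenchymal covariate and 2 with sample weights. Between the WT groups 2 were counted, Nnat among them, but 1 was at a mean TPM of at least 5 or without the high-mitochondrial libraries. Between the Het groups 1 passed, but 0 did with the mesenchymal covariate or a log2 change of at least 1, 2 with quantile normalization or without the high-mitochondrial libraries, 3 in a fit of those samples alone and 4 with sample weights. Of the wider imprinted list, 14 passed in C57, but 9 did with the acinar covariate and 0 when a log2 change of at least 1 was required. In Mixed 15 passed, but 4 did with a log2 change of at least 1. In its interaction 4 passed, but 0 did with the mesenchymal covariate, 7 with sample weights, 1 with a log2 change of at least 1 and 2 without the high-mitochondrial libraries. Over all genes the mesenchymal covariate left 27 interaction calls (10 higher, 17 lower) of 1233. Sample weights gave 2628 such calls, a log2 change of at least 1 gave 282, and leaving out the high-mitochondrial libraries gave 419. Between the Het groups, calls over all genes were 2234 higher and 1194 lower. They were 288 and 191 with the mesenchymal covariate and 3501 and 3071 with sample weights. A log2 change of at least 1 left 261 higher and 289 lower in C57, and 532 and 493 in Mixed. With the acinar covariate C57 had 2363 and 1078.

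With Nnat counted, leaving out each replicate gave 5 to 7 of the 10 genes in C57 and 6 to 7 in Mixed. With Nnat set aside, C57 had 4 of 9 without C57 WT replicate 1 and 6 without C57 WT replicate 5. Leaving out each replicate, with Nnat counted, gave 1 to 2 in the interaction, 2 between the WT groups and 1 to 2 between the Het groups. For the wider list it gave 13 to 16 in C57, 12 to 18 in Mixed and 4 to 6 in the interaction. Over all genes the same fits gave 3509 to 4749 higher and 1380 to 2298 lower in C57. In Mixed they gave 4411 to 5456 higher and 1795 to 2439 lower, and in the interaction 771 to 1775 calls. Between the WT groups they gave 716 to 1423 higher and 531 to 1034 lower. Between the Het groups they gave 1690 to 2510 higher and 866 to 1407 lower. No paired analysis was possible because the labels give no replicate numbers that groups share. Depth is unknown, so its effect on the low genes Dlk1 and Plagl1 cannot be measured here.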
